A study of Mus musculus with 13 samples.

Results

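The genes described here are the laminin chains Lama2, Lama4, Lama5, Lamb1, Lamb2 and Lamc1 and the integrin subunits Itga5, Itga7 and Itgb1. They were chosen by name, with earlier results of these data known, and all 9 were found among the 17924 genes of the deposited tables. RNA from whole muscles of mdm mice had been sequenced in 13 libraries, 5 from extensor digitorum longus (EDL, a fast hindlimb muscle), 5 from psoas (a hip flexor rich in fast fibres) and 3 from soleus (a slow hindlimb muscle). The mdm genotype, which every group shares, is a homozygous deletion in the titin gene (strain B6C3Fe a/a-Ttn mdm/J), and the animals were between 29 and 42 days old with no treatment given in the labels. Wild-type muscles were not analysed here, so each comparison is between muscles of the same mutant. Several muscles can come from 1 mouse, and the p-values measure the spread between these libraries.

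Laminins are trimers of an alpha, a beta and a gamma chain that polymerise into the basement membrane, the sheet of matrix around each muscle fibre, vessel and nerve. The alpha-2 chain is the main alpha chain around adult muscle fibres, and its loss causes a congenital muscular dystrophy. On the cell side, integrins are pairs of an alpha and a beta subunit: the alpha-7 subunit with beta-1 binds laminin and is the main integrin of the adult fibre, whereas alpha-5 with beta-1 binds fibronectin. All 9 genes are protein coding and lie on GRCm38 at chr10:26980036-27619758 (Lama2, minus strand), chr10:38965515-39110188 (Lama4, plus), chr2:180176373-180225859 (Lama5, minus), chr12:31265234-31329644 (Lamb1, plus), chr9:108479736-108490530 (Lamb2, plus), chr1:153218922-153332786 (Lamc1, minus), chr15:103344286-103366763 (Itga5, minus), chr10:128933818-128958282 (Itga7, plus) and chr8:128685654-128733200 (Itgb1, plus).

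Total counts per library ranged from 9114176 to 48835209. The read counts of the members ranged from 39 (Lama5 in EDL replicate 3) to 29121 (Itgb1 in soleus replicate 1), so that counting error was largest for Lama5. Values below are normalized counts, that is, read counts divided by the library's size factor, unless another scale is named. A gene was called when its adjusted p (edgeR quasi-likelihood test, Benjamini-Hochberg over 17069 genes) was under 0.01 and its absolute log2 fold change over 1, the limits the study used, and an adjusted p under 0.05 with no fold limit served as a second, looser rule. Alternatives, 24 in all, were other tools, scalings and filters, the replicate number, the age or a code in the labels (T1 to T6, meaning not given) as a further term, and each library left out.

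Psoas and EDL differed in the proportions of the members. Compared with EDL, psoas libraries had more Itga5, the fibronectin receptor subunit, and more Lamc1, the gamma chain, and they had less Lamb2, the beta chain concentrated at the neuromuscular junction. Each of these passed an adjusted p of 0.05, and in each the psoas and EDL libraries did not overlap. Over all genes tested, 18.1% passed this looser rule (9.06% higher and 9.06% lower) and 13% had no overlap (6.48% higher and 6.56% lower). None of the 9 passed the stricter limits, which 4.93% of all genes did (2.43% higher and 2.5% lower). No member passed either rule in soleus against EDL or in soleus against psoas. In the RNA integrity numbers that the paper lists, no mdm psoas library exceeds any mdm EDL library. The part of RNA quality in the psoas differences was not tested.

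The sequences upstream of Lamb2, Lamb1 and Itga5 are shown because the first fell while Itga5 rose in psoas, and because Lamb1 and Lamb2 are alternatives for the same place in the trimer. They are from RefSeq promoter windows of GRCm38.p6, which were found for 6 of the 9 members (Lama2, Lama5, Lamb1, Lamb2, Itga5 and Itgb1). Only bases 5′ of every annotated start are printed, on the gene's own strand, with 3 motifs in capitals: the GC box GGGCGG, the E-box CANNTG and the MCAT element CATTCC, each searched on both strands. The stretches are chr9:108479612-108479735 (plus strand) for Lamb2, chr12:31265043-31265233 (plus strand) for Lamb1 and chr15:103366792-103367041 (minus strand) for Itga5.
Lamb2: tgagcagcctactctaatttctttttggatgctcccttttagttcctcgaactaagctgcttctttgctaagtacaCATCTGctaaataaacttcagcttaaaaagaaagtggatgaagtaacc
Lamb1: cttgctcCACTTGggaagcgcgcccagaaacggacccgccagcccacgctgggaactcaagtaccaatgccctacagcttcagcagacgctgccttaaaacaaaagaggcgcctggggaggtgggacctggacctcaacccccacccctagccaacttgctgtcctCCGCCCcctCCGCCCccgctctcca
Itga5: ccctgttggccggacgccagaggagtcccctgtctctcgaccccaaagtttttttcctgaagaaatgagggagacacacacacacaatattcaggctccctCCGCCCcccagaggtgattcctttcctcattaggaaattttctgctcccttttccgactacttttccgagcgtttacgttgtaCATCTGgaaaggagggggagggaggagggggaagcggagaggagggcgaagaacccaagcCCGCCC
In the full windows of 300 bases, Lamb2 had no GC box, while Lamb1 and Itga5 had 2 each. A GC box was present in 35.7% of all 32851 windows. An E-box occurred in all 3 of these windows, as it did in 72.3% of all windows, and an MCAT element in none of the 3, against 14.7% overall. The G and C content was 44.0% in the Lamb2 window, 63.7% in the Lamb1 window and 58.7% in the Itga5 window. Of the windows not printed, that of Lama2 had 1 GC box, that of Lama5 4 and that of Itgb1 1. Their G and C content was 50.3%, 72.7% and 67.3%. These matches describe letters and not binding.

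Of the alpha chains, Lama2 had the highest read numbers. Its normalized counts in EDL replicates 1 to 5 were 3509.7, 2846, 1672, 2219.6 and 2272. In psoas replicates 1 to 5 they were 2799, 3308, 2548, 4568 and 3612, and in soleus replicates 1 to 3 they were 1886, 2196 and 2283. The 3 soleus libraries lay below all 5 psoas libraries and within the range of EDL, and psoas overlapped EDL. The mean was 2504 ± 699 (SD, n = 5) in EDL, 3367 ± 790.3 (n = 5) in psoas and 2122 ± 209 (n = 3) in soleus. The log2 difference of soleus from psoas was -0.66 (95% interval -1.21 to -0.11) with an adjusted p of 0.312 by edgeR, the lowest raw p of the 9 in that comparison (0.0229). In soleus against psoas, 10.2% of all genes had groups that did not overlap, 5.19% with soleus lower. Against EDL, psoas differed by 0.43 (interval -0.04 to 0.90, adjusted p = 0.190) and soleus by -0.23 (interval -0.78 to 0.31, adjusted p = 0.745). For psoas against EDL the label code as a factor gave 0.63 with an adjusted p of 0.0245 by edgeR. Over the 24 alternatives that adjusted p ranged from 0.0245 to 0.368.

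Lama4 encodes the alpha-4 chain of vessel walls and of fat and nerve basement membranes. EDL replicates 1 to 5 read 1934, 926, 651, 1568 and 1158, psoas replicates 1267, 1811, 1139, 2009 and 1530.1, and soleus replicates 1764, 1883 and 2227. The spread within EDL was large, with replicate 1 close to 3 times replicate 3, and all 3 muscles overlapped. In log2 units soleus exceeded EDL by 0.66 (interval 0.03 to 1.29), which did not pass the adjustment (adjusted p = 0.304, edgeR). With the label code as a factor the adjusted p was 0.0461, and over the 24 alternatives it ranged from 0.0461 to 0.511. Psoas differed from EDL by 0.32 (interval -0.24 to 0.88, adjusted p = 0.428), and soleus from psoas by 0.34 (interval -0.30 to 0.98, adjusted p = 0.641). For psoas against EDL the label code as a factor gave 0.63 with an adjusted p of 0.0230 by edgeR. Over the 24 alternatives that adjusted p ranged from 0.0230 to 0.706.

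Lama5, the alpha-5 chain of mature endothelium and epithelium, was the scarcest member. The EDL values were 192, 161, 77.6, 95.8 and 98.7, the psoas values 331, 252, 170.4, 230.2 and 135, and the soleus values 139, 266 and 170.2. Same-numbered libraries are not all from 1 mouse, since replicate 1 was at 38 days in EDL and 29 in psoas. Psoas was above EDL in each of the 5 pairs of same-numbered libraries, although psoas replicate 5 lay below EDL replicates 1 and 2. The log2 difference was 0.82 (interval 0.18 to 1.47, adjusted p = 0.0722 by edgeR). With the replicate number as a block the difference was 0.84 with an adjusted p of 0.0263, and over the 24 alternatives the adjusted p ranged from 0.0263 to 0.170. Soleus differed from EDL by 0.61 (interval -0.125 to 1.344, adjusted p = 0.444).

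The beta chains had opposite signs in psoas against EDL. Lamb2 had normalized counts of 4197, 4541, 3613, 2882 and 4287 in EDL replicates 1 to 5, of 1984, 2612, 2708, 2619 and 2389.7 in psoas and of 3043, 3467 and 2337 in soleus. Every EDL library exceeded every psoas library, and soleus spanned the gap between them. Lamb2 fell by 0.67 on the log2 scale in psoas (interval -1.06 to -0.27, adjusted p = 0.0241, edgeR), 1.59-fold, and over the 24 alternatives the adjusted p ranged from 0.00170 to 0.0562. In soleus against EDL the difference was -0.40 (interval -0.86 to 0.06, adjusted p = 0.420).

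Lamb1 encodes the beta-1 chain, which is shared by most laminins outside the synapse. Its values were 2146, 1435, 780.4, 1351 and 1343 in EDL, 1836, 2675, 1718, 2902 and 2032 in psoas and 1730.1, 2228 and 1778 in soleus. EDL replicate 1 lay among the psoas values, and the other 4 EDL libraries were below all psoas and soleus libraries. Psoas differed from EDL by 0.66 (interval 0.143 to 1.1803, adjusted p = 0.0716 by edgeR). Over the 24 alternatives the adjusted p ranged from 0.00431 to 0.152, and it was under 0.05 with the label code (log2 0.94, adjusted p = 0.00431), with DESeq2 (0.0423) and without EDL replicate 1 (0.0215). The soleus difference from EDL was 0.45 (interval -0.14 to 1.04, adjusted p = 0.496).

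Lamc1, the gamma-1 chain that nearly all laminins of muscle contain, read 2572, 2613, 1362, 1698 and 1601 in EDL and 3279, 3617, 2764, 3734 and 3083 in psoas. The soleus values were 2806, 4052 and 2395. Every psoas library exceeded every EDL library, and soleus replicate 3 lay within the EDL range. The rise in psoas was 0.74 on the log2 scale (interval 0.26 to 1.22, adjusted p = 0.0346, edgeR), 1.67-fold, with an adjusted p from 0.00741 to 0.0873 over the 24 alternatives. Soleus differed from EDL by a similar amount, 0.65 (interval 0.112 to 1.197), with an adjusted p of 0.213.

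**Figure D1:**
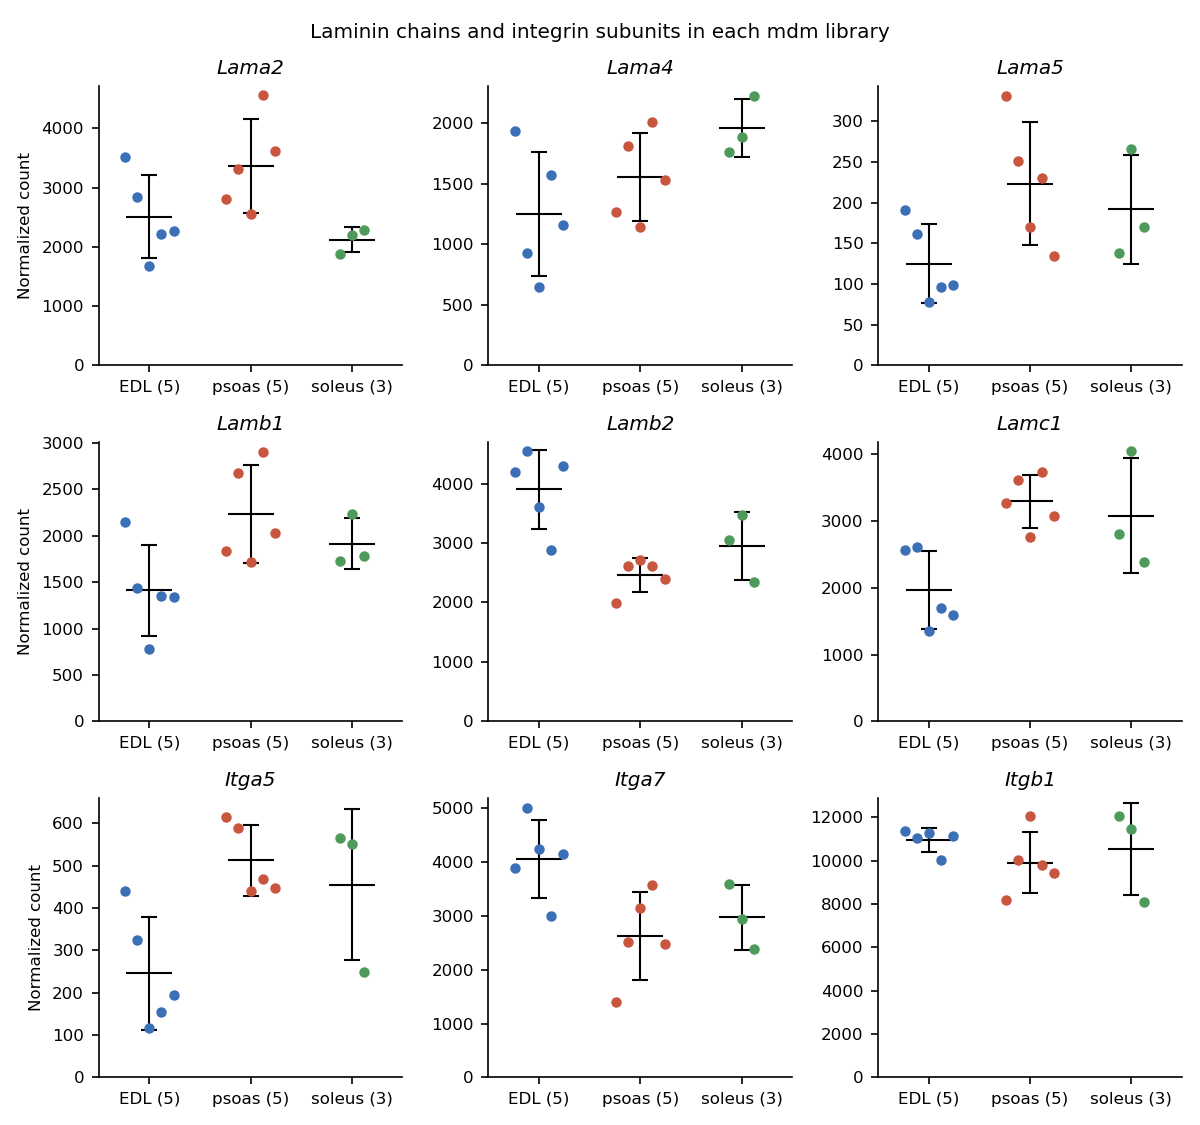
Normalized count (y axis, from 0) of each member in each mdm library, by muscle with the number of libraries in brackets. Points are libraries and the bar and whiskers are the mean and SD. Lamc1 and Itga5 in psoas lie above, and Lamb2 in psoas below, all 5 EDL libraries.

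Of the 3 integrin subunits, Itga5 had the largest difference between psoas and EDL. Its normalized counts were 439, 325, 115, 155 and 193 in EDL replicates 1 to 5, 615, 588, 441, 469 and 447 in psoas and 564, 551 and 249 in soleus. The lowest psoas library, replicate 3, stood just above the highest EDL library, replicate 1. Itga5 rose 2.07-fold in psoas (log2 1.05, interval 0.34 to 1.75, adjusted p = 0.0405, edgeR). With the replicate number as a block it passed the stricter limits as well (log2 1.200, adjusted p = 0.00323), as it did with the label code as a factor (1.38, adjusted p = 0.00188). Its adjusted p ranged from 0.00188 to 0.0940 over the 24 alternatives. In soleus the difference from EDL was 0.89 (interval 0.10 to 1.68, adjusted p = 0.258).

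Itga7, the alpha subunit of the main laminin-binding integrin of the fibre, did not pass either rule in the main edgeR fit. The values were 3888, 5015, 4250.4, 2997 and 4149.5 in EDL, 1404, 2527, 3159, 3569 and 2475 in psoas and 3598, 2943 and 2392 in soleus. Psoas replicate 1, from the youngest animal at 29 days, was the lowest. Psoas replicates 3 and 4 lay within the EDL range, and the other psoas libraries lay below it. The log2 difference of psoas from EDL was -0.63 (interval -1.15 to -0.11, adjusted p = 0.0843, edgeR) and that of soleus from EDL -0.44 (interval -1.05 to 0.16, adjusted p = 0.515). Over the 24 alternatives the adjusted p for psoas against EDL ranged from 0.0407, with DESeq2, to 0.160.

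Itgb1, the beta subunit that both alpha subunits require, had the highest read numbers of the members. EDL libraries read 11385, 11037, 11296, 10018 and 11119, psoas libraries 8201, 10049, 12080.4, 9798 and 9429.5, and soleus libraries 12051, 11456 and 8114. The lowest values were in psoas replicate 1 and soleus replicate 3, and all 3 muscles overlapped. The log2 difference was -0.15 for psoas against EDL (interval -0.54 to 0.24, adjusted p = 0.611), -0.05 for soleus against EDL (interval -0.50 to 0.40, adjusted p = 0.947) and 0.10 for soleus against psoas (interval -0.35 to 0.54, adjusted p = 0.869), all by edgeR. The sign of the small soleus differences was not stable: soleus against EDL became 0.025 with age as a covariate, and soleus against psoas -0.0012 with the label code.

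**Figure D2:**
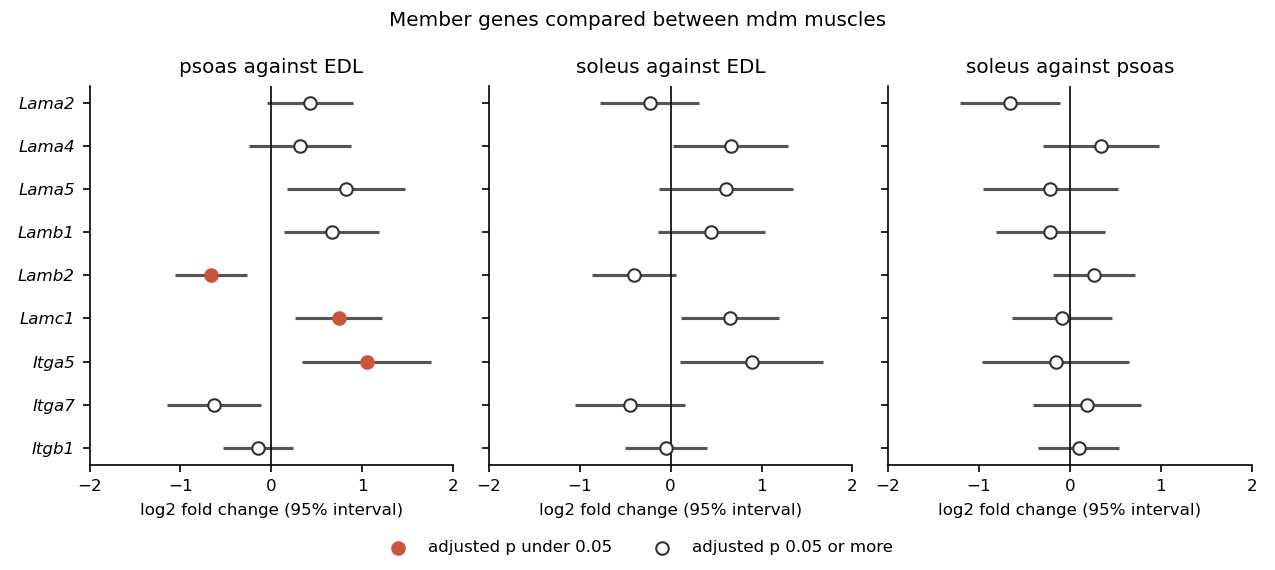
Log2 fold change (x axis) of each member in psoas against EDL, soleus against EDL and soleus against psoas, with 95% intervals from the edgeR fit. Filled points, which are Lamb2, Lamc1 and Itga5 in psoas against EDL, have an adjusted p under 0.05.

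In psoas against EDL, 6 members had positive and 3 negative log2 differences, with a median of 0.43 against 0.02 over all genes tested, 51.3% of which were above 0. An unadjusted p under 0.05 was found for 6 of the 9 and for 33.3% of all genes. In soleus against EDL 5 were positive and 4 negative (median 0.45, all genes -0.03, 47.4% above 0), none without overlap against 11% of all genes, with 3.43% of all genes past the looser rule, 0.978% past the stricter one and 0 members past either. Of those 9, 3 had an unadjusted p under 0.05 (Lama4, Lamc1 and Itga5), against 15.1% of all genes. DESeq2 gave 0 members past either rule here as well. In soleus against psoas 4 were positive and 5 negative (median -0.09, all genes -0.03, 47.4% above 0), and 0 members passed either rule by edgeR or DESeq2, where 0.633% of all genes passed the looser and 0.0762% the stricter rule. Only Lama2 had an unadjusted p under 0.05 there, against 12.7% of all genes. The comparisons share libraries, so their values are not independent of each other.

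The count of 3 members past the looser rule in psoas against EDL changed with most EDL and psoas libraries left out. It was 0 without EDL replicate 5 or without psoas replicate 1, 1 without EDL replicate 3, EDL replicate 4, psoas replicate 2 or psoas replicate 4, 2 without EDL replicate 2, 4 without psoas replicate 5 and 5 without EDL replicate 1, and it was 3 without psoas replicate 3 or any soleus library, while no log2 fold change of the 9 changed sign in that comparison. With age as a covariate it was 1 (Lamb2), with DESeq2 6 and with the label code as a factor 7.

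Ratios of alternative chains within a library do not depend on scaling, and 3 of them were compared across the 3 muscles, 9 comparisons in all. The read count of Lamb2 over that of Lamb1 was 1.96, 3.16, 4.63, 2.13 and 3.19 in EDL replicates 1 to 5. In psoas it was 1.08, 0.976, 1.58, 0.903 and 1.176, and in soleus it was 1.76, 1.56 and 1.31. EDL libraries had the highest ratios, with no overlap between EDL and either other muscle. Psoas ratios were closer to 1 in all libraries but replicate 3, which lay among the soleus libraries, so psoas and soleus overlapped. The mean log2 ratio was 1.36 lower in psoas than in EDL, 0.16 ± 0.31 (SD, n = 5) against 1.52 ± 0.50 (n = 5), with an exact two-sided permutation p of 0.00794 (adjusted over the 9 ratio comparisons, 0.0357), the smallest that 5 against 5 libraries allow. This 2.56-fold shift was present in 5 of 5 same-numbered pairs, between -1.70 and -0.86 in log2 units. It was -1.70 within label code T4, -1.55 within T5 and -1.341 within T6. T4 and T5 each held 1 library of each of these muscles and T6 held 2. The values by code therefore regroup same-numbered pairs and are not a second check. An exact sign-flip test over the 5 pairs gave its smallest possible p, 0.0625, and so could not pass 0.05. These pairs include replicate 1, whose EDL and psoas libraries are from mice of different age. Soleus differed from EDL by -0.91 (exact permutation p = 0.0357, the smallest possible with 3 against 5, adjusted 0.0643).

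The ratio of Itga7 to Itga5, the laminin-binding over the fibronectin-binding subunit, was 8.86, 15.4, 36.8, 19.4 and 21.5 in EDL. In psoas it was 2.28, 4.29, 7.17, 7.61 and 5.54, and in soleus 6.37, 5.34 and 9.59. All psoas libraries lay below all EDL libraries, and soleus replicate 3 reached the lowest EDL value. The mean log2 ratio was 2.31 ± 0.70 (SD, n = 5) in psoas and 4.20 ± 0.75 (n = 5) in EDL, a difference of -1.89 or 3.71-fold (exact two-sided permutation p = 0.00794, adjusted 0.0357). The difference was negative in 5 of 5 same-numbered pairs. It was -1.85, -2.36 and -1.65 within label codes T4, T5 and T6, which regroup libraries of the same pairs. The sign-flip test over pairs again gave an exact p of 0.0625. For soleus against EDL the difference was -1.42 (exact permutation p = 0.0714, adjusted 0.107).

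The ratio of Lama2 to Lama4 set soleus apart. It was 1.07, 1.17 and 1.03 in soleus, against 1.81, 3.07, 2.57, 1.42 and 1.96 in EDL and 2.21, 1.83, 2.24, 2.27 and 2.36 in psoas. Soleus overlapped neither of the other muscles. The log2 ratio in soleus was 0.94 below EDL and 1.001 below psoas, each with the smallest exact permutation p that 3 against 5 libraries allow, 0.0357, and with an adjusted p of 0.0643 that missed the threshold of 0.05. Psoas and EDL differed by 0.06 (exact permutation p = 0.778), and that difference was -0.75, -0.20 and 0.48 within label codes T4, T5 and T6.

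**Figure D3:**
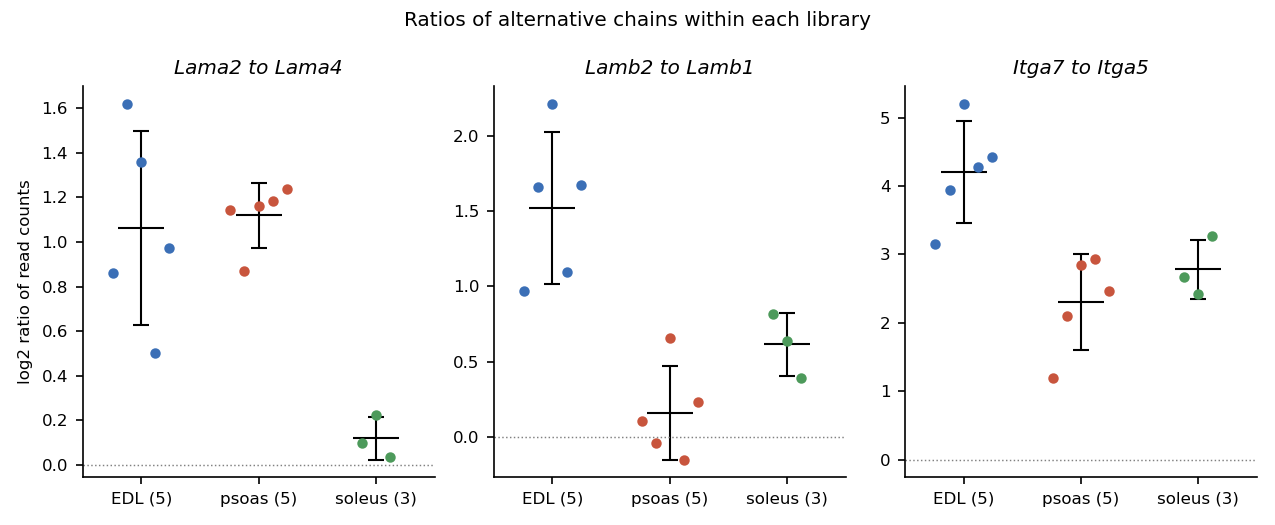
Log2 ratio of read counts (y axis) of Lama2 to Lama4, Lamb2 to Lamb1 and Itga7 to Itga5 in each mdm library, with the mean and SD per muscle. The dotted line marks equal counts. Soleus lies lowest for Lama2 to Lama4, and psoas lies below EDL without overlap in the other 2 panels.

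Levels can be compared between genes only per length, so normalized counts were divided by the kilobases of each gene's merged exons. On that scale Itgb1 was highest in every library, with means of 2688 ± 135 (SD, n = 5) in EDL, 2429 ± 344 (n = 5) in psoas and 2583 ± 520.1 (n = 3) in soleus. Lama5 was lowest in every library, at 10.98 ± 4.29, 19.6 ± 6.65 and 16.8 ± 5.84. In EDL the order was Itgb1, Lamb2, Itga7, Lamc1, Lama2, Lamb1, Lama4, Itga5 and Lama5, and each gene exceeded the next in 5 of 5 libraries except Lama2 over Lamb1, in 3 of 5. In psoas Lamc1 moved above Itga7 and Lamb1 above Lama2, and Lamb2 exceeded Lamc1 in only 2 of 5 libraries, so these neighbours did not separate. In soleus Lama4 exceeded Lama2 in 3 of 3 libraries, while Lamc1 exceeded Itga7 in 1 of 3.

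Of the 3 alpha chains per kilobase, Lama2 made up 58.0% ± 6.42 (SD, n = 5) in EDL, 58.1% ± 2.98 (n = 5) in psoas and 42.1% ± 0.821 (n = 3) in soleus. Lama4 made up 37.9%, 36.2% and 52.5%, and Lama5 between 3.07% and 9.51% in any library. Lamb2 was 82.0% ± 4.99 of the beta chains in EDL, 64.5% ± 4.80 in psoas and 71.4% ± 2.999 in soleus. The summed beta chains exceeded Lamc1 by a mean ratio of 3.43 in EDL, 1.59 in psoas and 1.85 in soleus, and the summed alpha chains were at 1.14, 0.884 and 0.873 of Lamc1. Gene length changes these figures: with the longest transcript in place of merged exons Itga7 ranked above Lamb2 in all 3 muscles, Lamb2 was 53.5% of the beta chains in psoas, and the summed alpha chains were at 1.87 of Lamc1 in EDL, 1.44 in psoas and 1.46 in soleus, above it in all 3 muscles.

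**Figure D4:**
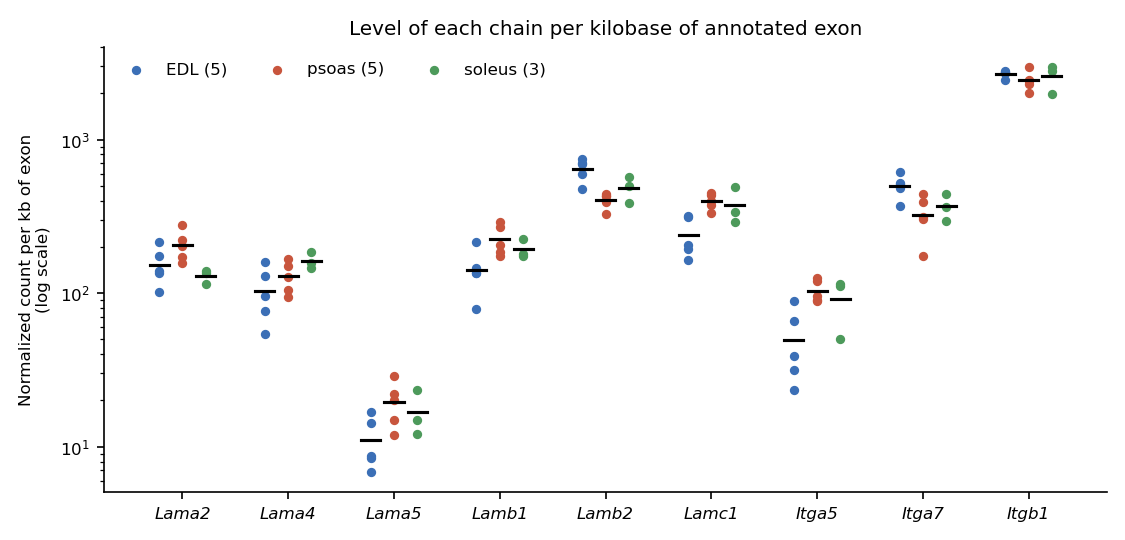
Normalized count per kilobase of merged exon (log scale) of each member, with points for libraries and a line for the mean of each muscle. Itgb1 lies highest and Lama5 lowest in all 13 libraries.

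Across the 13 libraries the members fell into 2 blocks, defined here after their values were seen. Lama2, Lama4, Lama5, Lamb1, Lamc1 and Itga5 correlated positively in 15 of 15 pairs (Pearson's r of log2 CPM from 0.40 to 0.93, median 0.75), as did Lamb2, Itga7 and Itgb1 in 3 of 3 pairs (0.72 to 0.87). All 18 pairs between the blocks had negative r, from -0.54 to -0.04. The highest value was that of Lamc1 with Itga5, 0.93, followed by Lama5 with Lamc1, 0.89. After the mean of each muscle was subtracted, the pairs within the 6 genes were still at 0.32 to 0.88 and those within the 3 at 0.73 to 0.77, but 12 of the 18 pairs between them were then positive, from -0.29 to 0.55. The points share their library, depth and scaling, and no test was made.

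**Figure D5:**
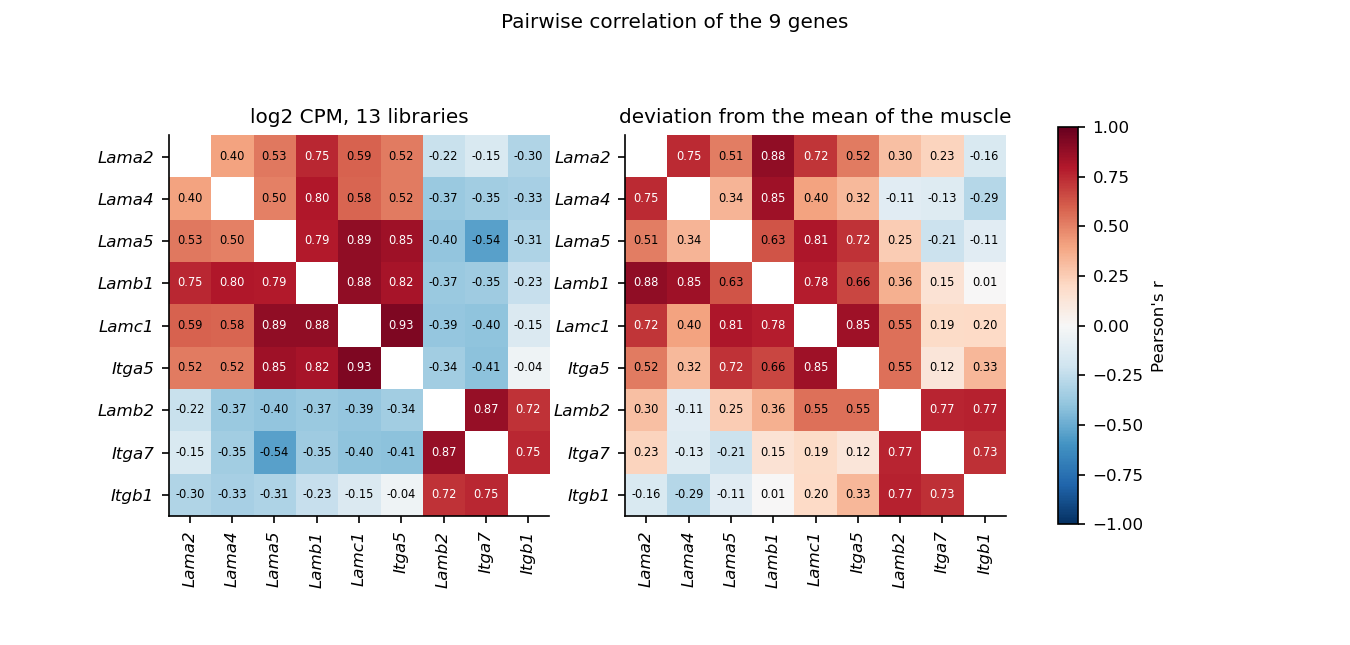
Pearson's r between members over 13 libraries, for log2 CPM (left) and for deviations from the mean of each muscle (right). The first 6 genes and the last 3 form blocks of positive r, and the negative r between blocks on the left lies mostly above 0 on the right.

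For each member the 3 genes most like it by Pearson's r of log2 CPM over the 13 libraries were taken from all genes tested. For Lamc1 they were Rfwd3 (0.96), Inpp4a (0.96) and Myh9 (0.95), and for Itga5 Nebl (0.95), Fgf16 (0.94) and Dusp11 (0.94). For Lama5 they were Pdgfrb, Arhgap31 and Itpkb (0.96 each), for Lamb1 they included Col5a1 (0.91) and Kifc5b (0.91), and for Lama4 they were Pxdn (0.92), Cyp4f16 (0.91) and Sptlc2 (0.91). For Lama2 they were Dlgap5 (0.90), Brca1 (0.88) and Ercc6l (0.87). In the second block, the genes nearest to Lamb2 included Slc30a6 (0.92) and Got2-ps1 (0.91), those nearest to Itga7 included Gm15469 and Atp5g2 (0.93 each), and those nearest to Itgb1 were Txnl4a, Gtpbp1 and Clptm1 (0.93, 0.93 and 0.91). Several of these genes were at low counts, with medians over the libraries of 8.57 for Kifc5b, 10.8 for Fgf16, 14.3 for Gm15469, 15.4 for Brca1 and 18.9 for Dlgap5.

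Of 18 genes for laminin linkers and network collagens, 5 were called higher and 0 lower in psoas against EDL, where 2.43% of all genes were called higher, and the median log2 fold change of the 18 was 1.04, against 0.02 over all genes tested. These were Nid2 (a nidogen, which links laminin to collagen IV), 3.48-fold, Col18a1 (collagen XVIII), 3.198-fold, Hspg2 (perlecan), 2.88-fold, Col4a5, 2.18-fold, and Agrn (agrin), 2.12-fold, with adjusted p (edgeR) of 0.00247, 0.00135, 0.00240, 0.00547 and 0.00862. Agrn lies beyond the 4 genes that the naming rule takes and was added after its value was seen. The major collagen IV chains Col4a1 and Col4a2, given here after their values were seen, differed by 0.60 and 0.62 with adjusted p of 0.209 and 0.189. In soleus against EDL only Col4a5 was called, 2.58-fold higher (adjusted p = 0.00855 by edgeR), where 0.978% of all genes were called. In soleus against psoas 0 of 18 were called, where 0.0762% of all genes were. An unadjusted p under 0.05 was found there for 5 of the 18, against 12.7% of all genes.

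Of 15 other genes for laminin receptors and proteins in complex with them, 3 were called higher and 1 lower in psoas against EDL. Over all genes tested, 2.43% were called higher and 2.5% lower in that comparison. Itgb4, the partner of the alpha-6 integrin subunit, rose 4.15-fold, Bcam, a laminin alpha-5 receptor, 2.30-fold, and Dag1 (dystroglycan) 2.19-fold, and Sgca (alpha-sarcoglycan) fell, being 2.77-fold lower, with adjusted p (edgeR) of 0.00480, 0.00837, 0.00578 and 0.00281. Of 12 other integrin chains Itgb8 was called, 3.56-fold higher (adjusted p = 0.00361). Of 22 integrin adaptors and signalling genes Zyx (zyxin) and Actn1 (alpha-actinin of focal adhesions) were called, 3.22-fold and 2.64-fold higher (adjusted p = 0.00203 and 0.00182). None of the 11 genes that glycosylate dystroglycan, and none of 4 further laminin chains, were called in psoas against EDL. An unadjusted p under 0.05 was found for 3 and 2 of them, against 33.3% of all genes. Under the looser rule 3 of the 11 were lower and 0 higher, and 1 of the 4 was higher and 0 lower. Over all genes tested, 9.06% passed that rule in each direction. Of the 11, 1 had a log2 fold change above 0, against 51.3% of all genes. In soleus against EDL and soleus against psoas none of these 5 lists had a called gene by edgeR. In those comparisons 0.978% and 0.0762% of all genes were called. Under the looser rule 2 of the 15 receptor and complex genes were higher and 0 lower in soleus against EDL, where 3.43% of all genes passed.

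The libraries differed in cell types that carry these chains, and in bulk RNA fewer cells of a type cannot be told from less RNA per cell. All 10 myofibre markers were detected in every library, 3 of 10 were called lower in psoas than in EDL, and their summed counts ran from 1337293 to 2590087 in EDL, 912603 to 1778906 in psoas and 900647 to 1307873 in soleus. Schwann cell markers, of the glia that wrap axons and have a laminin sheet of their own, were called higher in psoas for 5 of 10, with sums of 1409.5 to 2890.2 in EDL, 4516 to 32423 in psoas and 3051 to 7593 in soleus. Mesothelial markers were called higher in psoas for 6 of 7, with sums of 63.7 to 171 in EDL, 477 to 1474 in psoas and 124 to 275 in soleus. Satellite cell and regenerating fibre markers were called higher in psoas for 2 of 10. Their sums were 36347 to 68999 in EDL, 67746 to 146088 in psoas and 60098 to 181812 in soleus. Of these 10, 1 was called lower in soleus against EDL and 1 in soleus against psoas. Over all 17069 genes tested, 76 and 1 were called lower in those comparisons. At the looser rule psoas was higher than EDL for 8 of 10 Schwann cell, 7 of 7 mesothelial and 8 of 10 satellite cell markers. It was lower for 5 of 10 myofibre markers, with 0 the other way in each of these lists. Over all genes in psoas against EDL, 2.43% were called higher and 2.5% lower, and 9.06% passed the looser rule in each direction.

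Of the vessel and matrix cells, endothelial markers were called higher for 1 of 10 in psoas and in soleus against EDL (Vwf in both), and their sums, 2630.2 to 6249.7 in EDL, 3239 to 4882 in psoas and 5261 to 6295 in soleus, overlapped between psoas and EDL. Smooth muscle and pericyte markers had 1 of 10 called higher in psoas (Acta2). Under the looser rule 5 of these 10 rose and 1 fell when psoas was set against EDL. The median log2 fold change of the 10 was 1.02 there, against 0.02 over all genes tested. Their sums overlapped, at 10127 to 17231 in EDL, 9604 to 18034 in psoas and 10591 to 15088 in soleus. The median sum went the other way from most single markers, with 11759 in psoas and 15779 in EDL. Fibroblast and macrophage markers had 0 of 10 called in any comparison, and tendon markers had 4 of 6 called lower in psoas than in EDL. In psoas against EDL 2.43% of all genes were called higher and 2.5% lower, and 9.06% passed the looser rule in each direction. Macrophage log2 fold changes were above 0 for 10 of 10 there, 1 past the looser rule, against 51.3% of all genes. In soleus against psoas they were above 0 for 0 of 10, against 47.4% of all genes. Adipocyte markers had 3 of 8 called higher in soleus than in EDL, where 0.978% of all genes were called in either direction. Their sums were 9513 to 29439.8 in EDL, 15660.5 to 43327 in psoas and 62108 to 88449 in soleus. No marker tested was at 0 in every library of a muscle. The part of these markers in the member differences was not tested.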

How the data were processed

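Whole-muscle total RNA libraries (TruSeq Stranded Total RNA, paired 75-base reads) had been trimmed where of low quality (Trimmomatic 0.32), aligned by the authors with TopHat 2.1.1 to GRCm38.p4 and counted per gene in R. The overlap mode and strand setting are not given in the sources used here. The authors deposited raw read counts and size-factor normalized counts, a signal equal to counts over a factor per library, which they had computed with DESeq2 over more libraries. Fold changes came from the counts with edgeR 4.0.16 (TMM, muscle as the only factor, 13 libraries, genes at 10 or more normalized counts in 3 or more libraries). DESeq2 1.42.0, limma 3.58.1 and 9 further settings, and leaving out each library, were alternatives. Tested on simulated data for psoas against EDL (17069 genes, 200 changed 8-fold), edgeR recovered 200. The simulated spread was capped so that 8-fold could be recovered, and only genes above a minimum mean count were changed. The simulation therefore checks the code and does not measure power for the smaller differences of the members. Log2 CPM used a prior count of 2. Ratios of chains were compared by exact permutation over libraries (scipy 1.17.1). Gene positions and lengths are from GENCODE M21, and 631 exon bases of Lama2 overlap an antisense gene.

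Groups came from the tissue labels. Same-numbered EDL and psoas libraries deviated together (r of 0.289 to 0.407 over 5 pairs, log2 CPM minus the mean of the muscle). With same-numbered soleus libraries r was of either sign. These r do not show that 2 libraries come from 1 mouse. The replicate 1 pair had the highest r, 0.407, although its mice were 38 (EDL) and 29 (psoas) days old. The remaining same-numbered EDL and psoas pairs also share a label code. All results by pairs or with the replicate block include the replicate 1 pair. No 2 libraries of a muscle agreed within sampling noise (smallest chi-square per degree of freedom 56.5 over 23 pairs). The named genes are the members, up to 4 called genes per list with the largest change, and the 3 genes most like each member, of which some are not reported here. Members and lists were chosen with earlier results of these data known. The sequencing run is not in the labels, and the label code (T1 to T6, meaning not given) and the age stood in as alternatives. Other cell type lists are given as counts and summed levels.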

Additional observations from a re-analysis of the deposited data

Results flagged for a closer look

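Among 24 groups of 5 libraries tested (9 members and 3 ratios in EDL and psoas), 2 held a library far from the others by Dixon's test, and chance flags about 1 group in 20. Itgb1 in EDL replicate 4 was at 10018 normalized counts, below the next EDL library at 11037. The log2 ratio of Lama2 to Lama4 in psoas replicate 2 was 0.87, below the next psoas library at 1.14. The cause was not tested in either.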

How the results depend on the processing

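In psoas against EDL, 841 genes were called. The count was 1586 with DESeq2, 510 with age as a covariate, 557 with only the 2 muscles compared, 3093 at an adjusted p under 0.05 with no fold limit, and 318 to 803 when a library was left out. Members called, 0 in the main comparison, were 1 (Itga5) with the replicate block, 1 with the label code and 3 at the looser rule. Members past the looser rule, 3 in the main comparison, were 6 with DESeq2, 7 with the label code, 1 with age and 0 to 5 when a library was left out. In soleus against EDL, 167 genes were called, against 633 with DESeq2, 86 with the label code, 49 with age, 585 at the looser rule and 19 to 184 when a library was left out, and 1 member (Lama4) passed the looser rule with the label code. In soleus against psoas, 13 genes were called, against 171 with DESeq2, 20 with limma, 5 with a count of at least 10 in all libraries, 6 with the label code, 8 with only the 2 muscles compared, 108 at the looser rule and 3 to 21 when a library was left out. Where the cause is not in the setting itself (fewer libraries, another threshold), the cause was not tested.

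Small log2 fold changes turned sign. In soleus against EDL, Itgb1 was 0.025 with age and -0.15 to 0.11 when a library was left out. In soleus against psoas, Itga7 was -0.048 and Itgb1 -0.0012 with the label code, and leaving out a library gave -0.34 to 0.061 for Lamc1, -0.33 to 0.12 for Itga5 and -0.0060 to 0.25 for Itgb1, where soleus replicate 3 decided the sign of Lamc1 and Itga5 and soleus replicate 1 that of Itgb1. The log2 ratio of Lama2 to Lama4 in psoas against EDL was -0.75, -0.20 and 0.48 within label codes T4, T5 and T6, and -0.084 to 0.20 when a library was left out. The same ratio was -1.46 within T4 in soleus against EDL, and -0.71 and -1.18 within T4 and T6 in soleus against psoas. The ratio of Lamb2 to Lamb1 was 0.76 within T4 in soleus against psoas.

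With the replicate block as sign flips over 5 pairs, the ratios of Lamb2 to Lamb1 (-1.36) and Itga7 to Itga5 (-1.89) in psoas against EDL, whose size complete pairs cannot change, had the smallest exact p possible, 0.0625. Leaving out a library gave -1.50 to -1.19 and -2.16 to -1.61, where 4 against 5 libraries and 9 comparisons allowed an adjusted p of 0.0714. Among the members the block changed 1 call at the stricter limits, that of Itga5 in psoas against EDL (log2 1.200, adjusted p = 0.00323, edgeR). No other ratio changed at its threshold of 0.05. Libraries that share a number with soleus did not all deviate together (r from -0.162 to 0.421 with EDL and -0.302 to 0.159 with psoas), and the block then gave 126 and 11 called genes. Depth limits Lama5 most, at 39 reads in EDL replicate 3.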
